A study of Mus musculus with 15 samples.

Results

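Collagen genes were followed through pancreatic tumors and cultured tumor cells of the mouse line HY19636. A gene was included when its symbol had the form of a collagen chain and its mean value in a table was at least 10 normalized counts. The tables listed 44 such symbols among 55291 genes, and 35 of the 44 passed in the tumor table, 14 in the table of DON-treated cells and 16 in the table of Gln-free cells; the members of the culture tables were all among the 35. In the tumor table the members were split by structure into 11 fibrillar collagens, 8 basement membrane collagens and 16 others. The remaining 9 genes (Col9a1, Col26a1, Col19a1, Col25a1, Col22a1, Col6a6, Col6a4, Col9a2 and Col6a5) fell under the minimum in every table. At the limit in tumors, Col6a5 had a mean of 6.70 normalized counts and Col17a1 one of 11.7.

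HY19636 is a single PDAC line, labelled KRASmut and p53 mut, made from a pancreatic tumor of a mouse with Ptf1a-Cre as driver. Its 15 RNA-seq libraries formed 5 groups of 3. Cells in 10% FBS DMEM were left untreated (CNT), given 25 µM DON, a Gln antagonist, for 24 h, or kept without Gln for 24 h (noGln). Orthotopic tumors had grown from the same cells in the pancreas of female C57BL/6J mice aged 8 to 10 weeks and received either vehicle (VEH) or DRP-104, which releases DON in the body. The dose was 3 mg per kg, given in 2 cycles of 5 daily treatments with a rest of 2 days, and collection was at day 21. All groups carried the same mutations. The study describes the sequenced tumors of a group as separate tumors picked at random. Whether the 3 cultures of a group were grown separately is not given in the sources used here, so p-values between cultures measure the spread between these samples only, which may be technical.

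Collagens are secreted proteins whose chains wind into a triple helix. Fibrillar collagens (types I, II, III, V, XI, XXIV and XXVII) build the tensile fibers of connective tissue, and type IV collagen forms the sheet-like network of basement membranes. The chains of types XV and XVIII, which are also found at basement membranes, were placed in the same class as type IV. The others include the beaded filaments of type VI, the anchoring fibrils of type VII and molecules that decorate fibers. PDAC is known for a dense collagen-rich stroma that is laid down largely by fibroblasts.

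The tumor libraries held 16.3 to 20.7 M reads (M, 1e+06 reads) and the culture libraries 25.2 to 48.2 M. A second tumor set was given as FPKM in 6 columns named for the same groups, at 18.4 to 23.0 M fragments as read from the steps of its low values. Its columns could not be matched to the tumor libraries, since the deviations of same-named columns from their group means correlated at most at 0.0627 over 11359 genes, so the sets were read by group only. Among genes with 1 to 20 reads, between 69.6 and 72.7% had an even number of reads in the culture libraries, against 41.9 to 46.5% in the tumor libraries, so counting intervals that rest on few culture reads are too narrow where reads were counted in pairs. A list of 6 T cell markers summed to 1255 normalized counts in DRP-104 tumor 3 and to at most 80.4 in the other 5 tumors. Epithelial markers were above 0 in every group for 8 of 8 genes.

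Promoter windows were printed for 6 members on which the results turn: the paired type IV chains that led in cultured cells, 2 fibrillar chains that the cells nearly lacked, and 2 chains that rose in culture. Each window ran from 250 bases before to 50 bases after the start that the RefSeq promoter table uses for the gene on GRCm38.p6, and capitals mark 3 core promoter motifs on either strand, namely CCAAT (the CCAAT box), the GC box core GGGCGG and the TATA box core TATAAA. Col4a1 (chr8:11312777-11313076, minus strand) and Col4a2 (chr8:11312555-11312854, plus strand) start head to head. Their windows shared 78 bases, and the genes overlapped by 22 bases in the FPKM table's coordinates. RefSeq also annotates a start upstream of the one used for Col4a1 (11312889), Col11a2 (34038919) and Col20a1 (180983323), and for Col20a1 that start lies outside the printed window.
Col4a1: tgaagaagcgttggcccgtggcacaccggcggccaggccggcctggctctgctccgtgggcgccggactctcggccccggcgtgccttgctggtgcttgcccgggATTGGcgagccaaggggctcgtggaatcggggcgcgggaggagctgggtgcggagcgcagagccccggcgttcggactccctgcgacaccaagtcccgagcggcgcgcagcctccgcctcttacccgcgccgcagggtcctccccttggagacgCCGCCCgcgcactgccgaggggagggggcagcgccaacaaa
Col4a2: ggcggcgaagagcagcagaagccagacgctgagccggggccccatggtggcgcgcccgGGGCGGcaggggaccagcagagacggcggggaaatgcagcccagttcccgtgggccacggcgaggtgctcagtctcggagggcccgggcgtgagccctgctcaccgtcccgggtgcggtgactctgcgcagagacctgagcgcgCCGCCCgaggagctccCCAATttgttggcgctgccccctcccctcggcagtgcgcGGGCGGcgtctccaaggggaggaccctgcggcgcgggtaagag
Col1a2, on chr6:4505368-4505667 of the plus strand, and Col3a1, on chr1:45311288-45311587 of the plus strand, encode chains of types I and III.
Col1a2: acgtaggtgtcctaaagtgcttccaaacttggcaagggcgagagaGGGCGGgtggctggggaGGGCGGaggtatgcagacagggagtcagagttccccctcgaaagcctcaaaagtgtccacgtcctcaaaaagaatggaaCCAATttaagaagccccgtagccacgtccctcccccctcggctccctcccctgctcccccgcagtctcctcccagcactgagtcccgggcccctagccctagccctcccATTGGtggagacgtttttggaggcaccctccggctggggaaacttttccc
Col3a1: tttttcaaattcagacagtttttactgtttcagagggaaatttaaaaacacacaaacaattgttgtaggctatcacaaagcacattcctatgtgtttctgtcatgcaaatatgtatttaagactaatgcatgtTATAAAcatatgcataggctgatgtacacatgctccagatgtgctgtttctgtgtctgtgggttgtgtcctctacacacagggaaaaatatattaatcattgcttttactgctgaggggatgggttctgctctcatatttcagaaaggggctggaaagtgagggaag
Col20a1, on chr2:180986285-180986584 of the plus strand, and Col11a2, on chr17:34038888-34039187 of the plus strand, were the members with the highest rises in cultured cells.
Col20a1: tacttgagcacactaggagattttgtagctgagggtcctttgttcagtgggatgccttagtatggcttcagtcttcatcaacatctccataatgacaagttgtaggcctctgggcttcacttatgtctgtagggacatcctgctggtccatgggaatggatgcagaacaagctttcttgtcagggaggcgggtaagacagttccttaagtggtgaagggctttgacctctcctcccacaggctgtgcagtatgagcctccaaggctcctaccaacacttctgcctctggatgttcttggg
Col11a2: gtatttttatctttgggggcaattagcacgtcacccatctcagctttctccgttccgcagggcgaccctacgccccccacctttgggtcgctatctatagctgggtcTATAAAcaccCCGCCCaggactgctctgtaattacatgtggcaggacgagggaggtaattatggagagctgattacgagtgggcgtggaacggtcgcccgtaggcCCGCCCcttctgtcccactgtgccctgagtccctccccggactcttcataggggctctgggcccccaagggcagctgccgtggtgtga
RefSeq windows were found for 28 of the 35 members, 30 windows in all. CCAAT occurred in 10 of the 30, against 37.4% of 32851 promoters of the same length, GGGCGG in 18 against 35.7%, and TATAAA in 5 against 13.6%. The letters TGATGNAA, the core of the amino acid response element, were in 0 of the 30 windows and in 3.97% of all promoters. The 4 motifs were searched on both strands.

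In VEH tumors the fibrillar collagens made up the largest class. Levels were compared between genes as RPKM, reads per kilobase of gene length and per M reads. The fibrillar share of summed collagen RPKM was 50.6, 59.2 and 44.5% in the 3 VEH tumors, the basement membrane share 28.9, 26.0 and 33.6%, and the share of the others 20.5, 14.8 and 21.9%. In cultured CNT cells basement membrane chains made up the largest class, with 87.2 to 88.0% of collagen RPKM, against 7.95 to 8.61% in others and 3.80 to 4.79% in fibrillar chains. The groups did not overlap in any class. The 35 genes took 0.566 to 0.804% of all reads in VEH tumors and 0.209 to 0.238% in CNT cells. The basement membrane share depends on where types XV and XVIII are placed: with type IV alone, the mean share was 12.6% in VEH tumors and 48.7% in CNT cells. The others then held a mean of 47.1% in CNT cells. In CNT culture 2 they stood above type IV, at 48.2 against 48.0%, so the largest class in CNT cells depends on this placement.

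**Figure D1:**
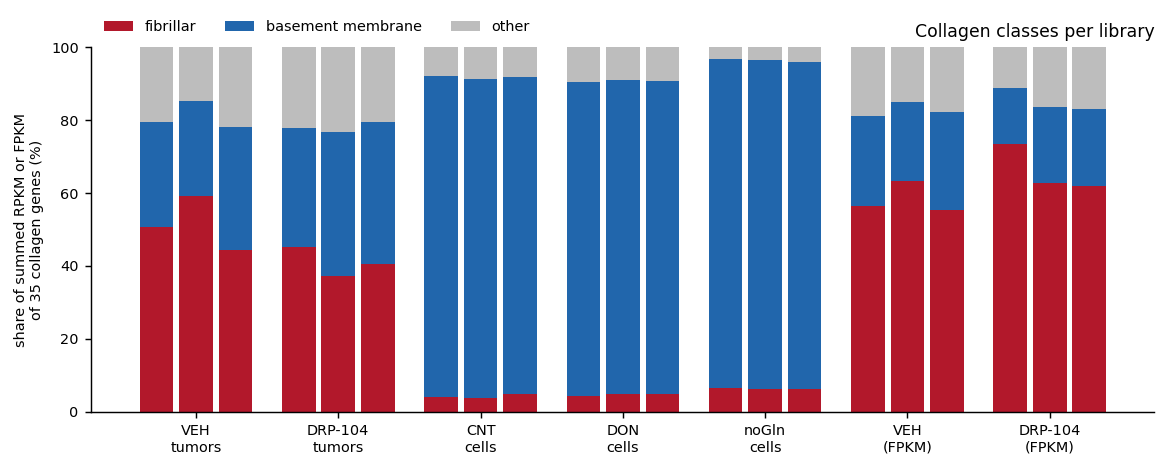
Share of summed collagen RPKM (%, y axis; FPKM for the second tumor set) in fibrillar, basement membrane and other collagens, for each library or column. Fibrillar chains held 44.5 to 59.2% in VEH tumors and 3.80 to 4.79% in CNT cells.

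Among fibrillar chains, Col3a1, the chain of type III, had 231, 316 and 125 RPKM in VEH tumors, and Col1a1 (chr11:94936224-94953042 on GRCm38, plus strand) and Col1a2, the chains of type I, had 167, 216 and 127 RPKM and 132, 179 and 91.7 RPKM. The ranges of these 3 genes overlapped. Col5a1, a chain of the type V fibrils that nucleate type I, came next at 36.0, 37.3 and 26.7 RPKM. The ratio of Col1a1 to Col1a2 was 1.21 to 1.38 in VEH tumors and 1.09 to 1.39 in DRP-104 tumors.

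Of the basement membrane chains, Col18a1 (chr10:77052178-77166548 on GRCm38, minus strand), which carries the endostatin domain, had 190, 151 and 159 RPKM in VEH tumors. Col4a1 had 79.4, 103 and 83.5 RPKM and Col4a2 had 42.7, 64.4 and 49.3 RPKM; they encode the chains of the most common type IV molecule. Col15a1, found in the basement membranes of vessels and muscle, had 37.0, 32.4 and 21.5 RPKM. Col18a1 overlaps Slc19a1 on the opposite strand, and strand use in counting is not given in the sources used here. Col18a1 was above Col4a1 in each of the 3 VEH tumors, and Col4a1 above Col4a2.

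Among the others, Col6a1 led with 141, 108 and 110 RPKM in VEH tumors, and Col6a2 had 65.7, 49.3 and 45.3 RPKM. Both encode chains of type VI beaded filaments. Col7a1, the anchoring fibril collagen of epithelia, had 12.8, 13.6 and 26.0 RPKM. Col12a1, a fiber-associated collagen, had 6.87, 11.02 and 6.58 RPKM. Col6a1 and Col6a2 stood above Col7a1 and Col12a1 in every VEH tumor, whereas Col7a1 and Col12a1 were close to each other in VEH tumor 2.

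**Figure D2:**
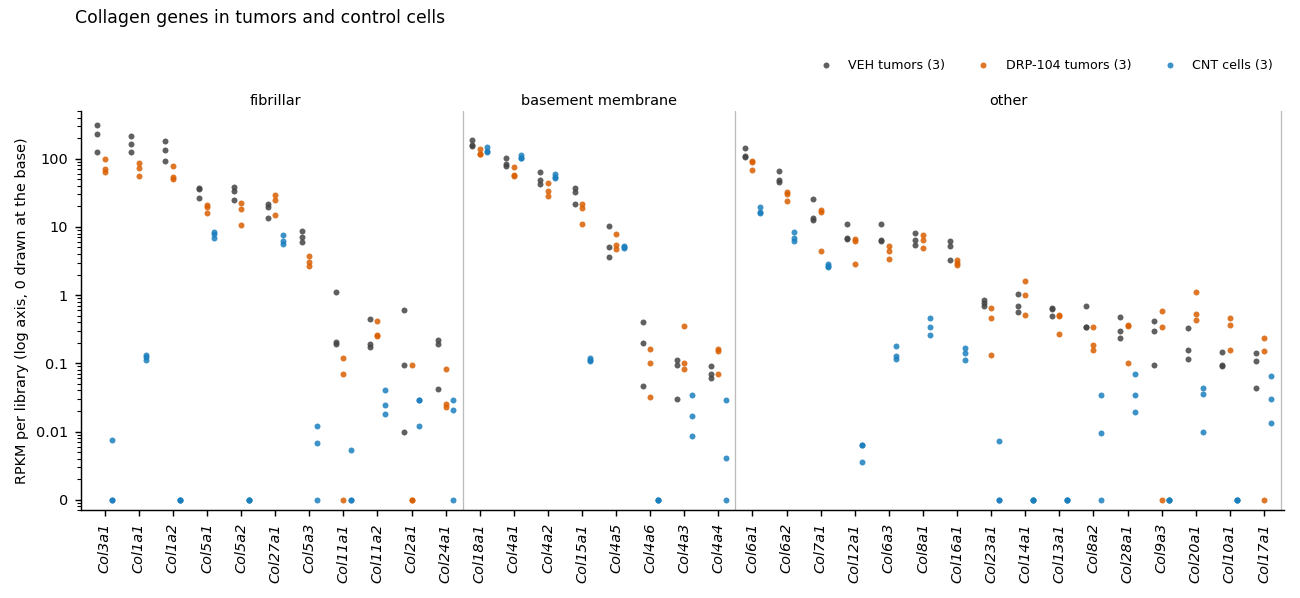
RPKM (log axis) of members of each class, 1 point per library, by group. Col1a1, Col1a2 and Col3a1 were at or above 50.6 RPKM in all 6 tumors and at most 0.131 RPKM in CNT cells. Col18a1, Col4a1 and Col4a2 were high in both.

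DRP-104 and VEH tumors were compared to ask how Gln antagonism in the animal related to the collagens of the tumor. After DRP-104, 27 of 35 members had a negative log2 difference in the tumor table, but 0 of 35 passed the limma test, as did 0% of the 15454 genes tested. The smallest adjusted p among members was 0.916. At an unadjusted p under 0.05 there were 16 members, 15 lower and 1 higher, against 5.01% of all genes. The groups did not overlap for 14 members that were lower and 2 that were higher after DRP-104, against 5.75% and 4.83% of all genes. By class, 7 of 11 fibrillar, 1 of 8 basement membrane and 6 of 16 other collagens were lower without overlap. Of the fibrillar chains, Col11a1, Col24a1 and Col2a1 had means of 9.33, 5.82 and 3.21 normalized counts in DRP-104 tumors. Their means in VEH tumors were 73.9, 20.1 and 23.0. They reached the minimum only through VEH tumors, so the filter favored lower values for them and set part of these counts and of the fibrillar median. The median log2 difference was -1.19 for fibrillar, -0.44 for basement membrane and -0.55 for other collagens, and -0.01 for all genes.

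Col3a1 had 11054, 7365 and 6426 normalized counts in DRP-104 tumors and 23090, 33750 and 13221 in VEH tumors. All 3 DRP-104 tumors were below all 3 VEH tumors, with a log2 difference of -1.43 (SE 0.35). Col1a1 had 10293, 8286 and 5915 against 17816, 24588 and 14244 normalized counts, a log2 difference of -1.21 (SE 0.27). Col1a2 had 8325, 5390 and 4914 against 12714, 18372 and 9282, a log2 difference of -1.10 (SE 0.29). For both chains of type I the groups did not overlap. Col5a1 had 3254, 3338 and 2478 normalized counts in DRP-104 tumors and 5447, 6020 and 4254 in VEH tumors, a log2 difference of -0.79 (SE 0.19). Of all 11 fibrillar chains only Col27a1 (0.33) and Col11a2 (0.29) had log2 differences above 0. The count test of DESeq2 on the recovered reads called 6 members lower, against 0.207% of all genes: Col1a1 (adjusted p = 0.00828), Col1a2 (0.038), Col3a1 (0.00788), Col5a1 (0.0417), Col5a3 (0.00197) and Col6a2 (0.031). edgeR called 0.

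Basement membrane chains differed less. Col18a1 had 14604, 16482 and 13512 normalized counts in DRP-104 tumors and 21699, 18401 and 19055 in VEH tumors, and was the 1 member of its class without overlap (log2 difference -0.41, SE 0.17). Col4a1 had 7472, 9477 and 6753 against 9454, 13053 and 10462. Col4a2 had 4361, 5362 and 3311 against 4950, 7967 and 6020. For both type IV chains the highest DRP-104 tumor lay above the lowest VEH tumor, with log2 differences of -0.48 (SE 0.19) and -0.54 (SE 0.23). Col15a1 had 2245, 1826 and 1037 normalized counts against 3445, 3218 and 2108, with groups that overlapped and a log2 difference of -0.82 (SE 0.30). Col4a3 and Col4a4, chains best known from kidney and lung, were at 4.8 to 58.8 normalized counts in every tumor and had log2 differences of 1.00 and 0.70.

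Among the others, Col6a2 had 2949, 3000 and 2107 normalized counts in DRP-104 tumors and 5806, 4647 and 4213 in VEH tumors, and Col6a1 had 7177, 7071 and 5104 against 10428, 8478 and 8533. Neither gene overlapped between groups, and their log2 differences were -0.87 (SE 0.19) and -0.51 (SE 0.18). The ratio of Col6a1 to Col6a2 was 2.15 to 2.43 in VEH tumors and 2.82 to 2.92 in DRP-104 tumors. Col7a1 ran the other way in part, with 2996, 3139 and 751 normalized counts in DRP-104 tumors and 2135, 2418 and 4556 in VEH tumors. Its log2 difference of -0.58 (SE 0.54) rested on DRP-104 tumor 3 and was 0.10 without it. Col12a1 had 1508, 1352 and 598 against 1424, 2434 and 1433 normalized counts and overlapped. Col20a1, a little-studied fiber-associated collagen, had 43.8, 34.6 and 84.3 normalized counts in DRP-104 tumors and 25.0, 9.3 and 12.5 in VEH tumors, and with Col10a1, the collagen of hypertrophic cartilage, was 1 of 2 members higher without overlap. Col10a1 had a mean of 19.6 normalized counts in DRP-104 and 6.53 in VEH tumors, so it reached the minimum only through DRP-104 tumors. It overlaps Nt5dc1 on the opposite strand, which had a mean of 170.5 normalized counts in the tumor table.

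Of 12 fibroblast markers limma called 0. They summed to 4464 to 7664 normalized counts in DRP-104 tumors and 7090 to 11904 in VEH tumors, ranges that overlapped, and 6 of the 12 had an unadjusted p under 0.05, against 5.01% of all genes. Their median log2 difference was -1.003. Endothelial markers summed to 1185 to 1861 against 2035 to 2251, pericyte markers to 1304 to 2139 against 1895 to 2277 and epithelial markers to 131603 to 174000 against 117236 to 163181. Their part in the collagen values was not tested, and in bulk samples fewer cells of a type and less RNA per cell cannot be told apart.

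The FPKM set gave the opposite sign. After DRP-104, 27 of 29 members with a mean FPKM of at least 0.5 were higher than in VEH, with 0 of 29 called by limma, as were 0% of 14183 genes. The smallest adjusted p was 0.292. The groups did not overlap for 15 higher members and 1 lower member, against 9.6% and 9.65% of all genes, and 14 members had an unadjusted p under 0.05, against 7.61%. The median log2 difference was 0.55 for fibrillar, 0.38 for basement membrane and 0.70 for other collagens, and -0.02 for all genes. Of the 29 members tested in both sets, 21 had a negative log2 difference in the tumor table and a positive one in the FPKM set, 6 were positive in both and 2 negative in both. The same split over all genes was not counted.

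Col1a1 had 1278, 395 and 334 FPKM in DRP-104 columns and 276, 323 and 199 in VEH columns. Col3a1 had 911, 447 and 342 against 311, 443 and 284 FPKM, and Col1a2 had 687, 301 and 237 against 202, 278 and 164. For Col1a1 the groups did not overlap, and for Col3a1 and Col1a2 they did; DRP-104 column 1 was the highest of the 6 columns for all 3 genes. Col12a1 had 34.6, 29.2 and 25.4 FPKM in DRP-104 columns and 13.9, 14.3 and 7.96 in VEH columns, the largest log2 difference of the set at 1.26 (SE 0.23). Col18a1 had 235, 166 and 139 against 176, 180 and 173 FPKM, a log2 difference of -0.01 (SE 0.19). Without DRP-104 column 1 the median of the members was 0.28 in place of 0.53. Lower without overlap in the tumor table and higher without overlap in the FPKM set were 5 members: Col1a1, Col5a2, Col11a1, Col23a1 and Col8a2. The share of all genes with this pattern was not counted, so it cannot be called particular to collagens. The fibroblast markers of this set summed to 312 to 364 FPKM after DRP-104 and 268 to 406 after VEH, so here their ranges overlapped. Endothelial markers summed to 42.6 to 54.6 against 41.9 to 51.2 FPKM, and markers of acinar cells, the enzyme-secreting cells of the normal pancreas, to 595 to 3286 against 152 to 872 FPKM. The part of the marker sums in the collagen values of this set was not tested.

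**Figure D3:**
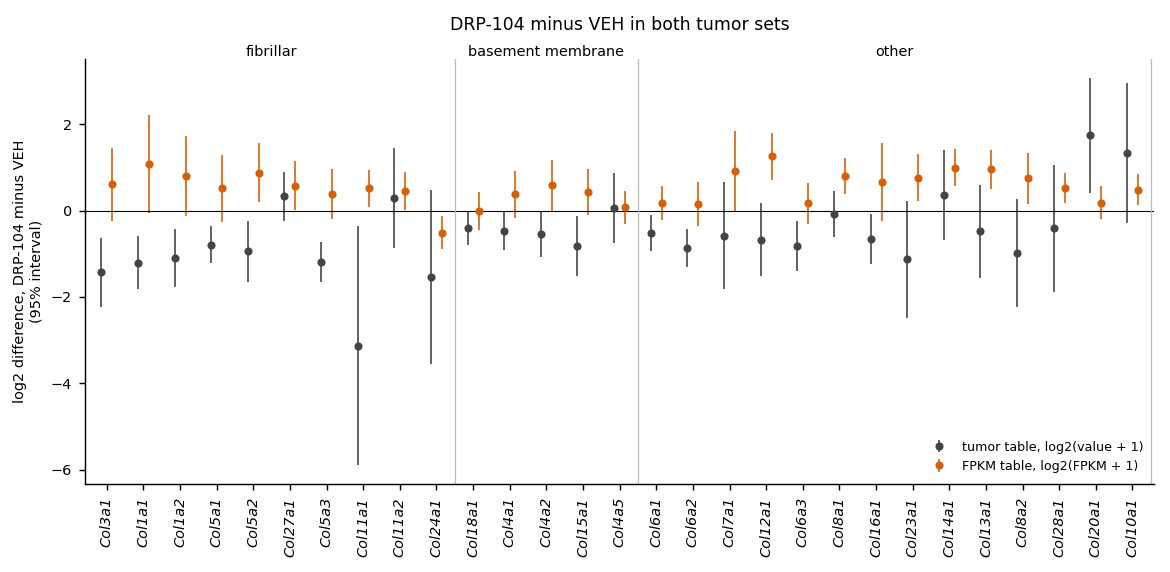
Log2 difference between DRP-104 and VEH with its 95% interval for each member, in the tumor table and in the FPKM set. Of 29 members in both, 21 lie below 0 in the tumor table and above 0 in the FPKM set. The share over all genes was not counted.

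The class shares moved in opposite ways too. In the tumor table the fibrillar share was 45.3, 37.2 and 40.4% after DRP-104 and 44.5 to 59.2% in VEH, and the basement membrane share was 32.5, 39.6 and 39.1% against 26.0 to 33.6%. In both classes the groups overlapped only through DRP-104 tumor 1 and VEH tumor 3. In the FPKM set the basement membrane share was 15.2, 20.8 and 21.2% after DRP-104 and 24.5, 21.9 and 27.0% in VEH, without overlap, and the fibrillar share was 73.6, 62.8 and 61.8% against 56.6, 63.2 and 55.3%. With type IV alone, the basement membrane share of the FPKM set was 8.28, 10.3 and 10.7% after DRP-104 against 10.9, 9.97 and 12.5% in VEH, and the groups overlapped. In both sets the fibrillar class was the largest in every VEH tumor or column.

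To see which collagens the tumor cells themselves made, the cultures were read alone. Of the 35 members, 14 had a mean of at least 10 normalized counts in the DON table and 16 in the noGln table, and 9 and 10 had a mean of at least 50. In untreated CNT cells, Col18a1 had 129, 148 and 123 RPKM, Col4a1 102, 113 and 103 RPKM and Col4a2 53.6, 60.6 and 53.0 RPKM. The ratio of Col4a1 to Col4a2 was 1.87 to 1.94 in CNT cells and 1.60 to 1.86 in VEH tumors. Next came Col6a1 at 16.04, 19.9 and 16.5 RPKM, then Col5a1, Col6a2, Col27a1 and Col4a5, each at 4.84 to 8.55 RPKM, and Col7a1 at 2.55, 2.89 and 2.71 RPKM. These 9 genes were the members with a mean of at least 50 in the DON table.

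The chains of types I and III were nearly missing from the cells. Col1a2 had 0 reads in all 9 cultures, and Col3a1 had 2 reads in 1 CNT library and 0 in the other 8 cultures. Col1a1 had 21, 20 and 32 reads in CNT cells, 0.131, 0.124 and 0.112 RPKM. In all 3 CNT libraries 7 of the 35 members were at 0: Col1a2 and Col5a2 of the fibrillar chains, Col4a6 of the basement membrane chains, and Col10a1, Col13a1, Col14a1 and Col9a3. Of 12 fibroblast markers, Pdpn, Dcn, Lum, Thy1, Acta2 and Postn were at 0 in all 9 cultures and the other 6 were not. Among these, Pdgfra had 103 to 1067 reads, Fbln1 92 to 1870 reads and Tagln 5 to 14 reads in a culture, and Pdgfrb, Il6 and Cxcl12 had at most 4 reads.

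VEH tumors and CNT cells were then compared on a joint scale. Of 32 members tested, 27 were called by limma, 26 higher in tumors and 1 lower, against 59.7% of 15030 genes (33.1% higher and 26.6% lower). The called members were 10 of 11 fibrillar chains, all higher, 13 of 13 others, all higher, and 4 of 8 basement membrane chains, 3 higher and 1 lower. The median log2 difference was 5.69 for fibrillar, 4.37 for other and 0.80 for basement membrane chains, and 0.09 for all genes; over the 32 it was 3.38, and 3.23 with the 5 genes at 0 in CNT cells set to their bounds. The 5 genes at 0 in CNT cells, and others nearly absent there such as Col3a1, reached the minimum only through VEH tumors. Members this low in cells could enter the test only by being higher in tumors, so the filter set part of these counts and medians. Tumors also hold host cells, and the source of the RNA and any difference in library preparation cannot be told apart in this comparison.

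Against a floor of 3 reads per library, Col1a2 was at least 6421-fold higher in VEH tumors, Col5a2 at least 1907-fold and Col14a1, a fiber-associated collagen, at least 43.8-fold. Where cells had few reads, the ratio of summed, scaled reads was 55336 for Col3a1 (95% counting interval 15318 to 456935, from 2 reads in cells) and 1222 for Col1a1 (972 to 1560). It was 231 for Col15a1 (179 to 303) and 48.4 for Col6a3, the third chain of classical type VI collagen (41.1 to 57.6). The type VI chains differed among themselves: Col6a1 and Col6a2 were 5.80-fold and 6.23-fold higher in tumors, and the ratio of Col6a3 to Col6a2 was 0.128 to 0.166 in VEH tumors and 0.0167 to 0.0212 in CNT cells. Col5a1 was 3.66-fold higher in tumors, whereas its partner Col5a2 had 0 reads in CNT cells.

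Of the type IV and XVIII chains, Col4a1, Col4a2, Col4a5 and Col18a1 stood apart from this. The type IV chains with few reads did not. The ratio of VEH tumors to CNT cells was 3.51 for Col4a3 (counting interval 1.95 to 6.60) and 6.56 for Col4a4 (3.26 to 14.6). Col4a6, with 0 reads in CNT cells, was at least 13.0-fold higher in VEH tumors. Col4a1 was lower in tumors than in cells (log2 difference -0.50, SE 0.15, adjusted p = 0.0139), a call that was lost without VEH tumor 1, without VEH tumor 3, without CNT culture 2 and with quantile normalization (-0.16). Col4a2 (-0.35, SE 0.17), Col4a5 (-0.06, SE 0.29) and Col18a1 (0.08, SE 0.14) did not pass the test. Their 95% intervals were -0.73 to 0.03, -0.71 to 0.59 and -0.24 to 0.40. Without VEH tumor 2, Col4a2 was called lower (-0.53, adjusted p = 0.0152), and with quantile normalization Col18a1 was called higher in tumors (0.43, adjusted p = 0.0397). Quantile normalization called 21 members in this comparison, 0 of them lower; under it the higher tumor value of Col20a1 (log2 2.23) turned to -0.55 and the call of Col11a2 was lost.

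DON-treated cells were compared with CNT cells to ask how Gln antagonism changed the collagens that the tumor cells express. Of 14 members, 13 were called, 12 lower and 1 higher, against 68.1% of 13556 genes (34.7% lower and 33.3% higher). Col1a1, Col8a1 and Col16a1, among the 12 lower, reached the minimum only through CNT cells, so the filter set part of this count. The median log2 change was -2.26, and 0.02 for all genes. All 3 fibrillar and all 4 basement membrane members fell, as did 5 of 7 others. The 35 genes took 0.0552 to 0.0717% of all reads after DON.

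Col18a1 fell from 27964, 31813 and 24470 normalized counts in CNT cells to 5813, 4881 and 6647 after DON, a 4.87-fold fall (log2 -2.28, SE 0.12, adjusted p = 1.37e-09). Col4a1 went from 22978, 25535 and 21292 to 6415, 6132 and 7641, a 3.46-fold fall, and Col4a2 from 11780, 13287 and 10699 to 2947, 3016 and 3506, a 3.77-fold fall. None of these groups overlapped. The ratio of Col4a1 to Col4a2 was 1.98 to 2.13 after DON, and that of Col18a1 to Col4a1 was 0.831 to 0.946, against 1.20 to 1.30 in CNT cells. Col4a5, a chain encoded on the X chromosome, had 1162, 1077 and 1045 normalized counts in CNT cells and 141, 113 and 184 after DON (log2 -2.93, SE 0.17, adjusted p = 2.56e-09).

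The largest falls on the log2 scale were in genes with few reads. Col16a1, a fiber-associated collagen, had 16, 20 and 42 reads in CNT cells and 4, 0 and 0 after DON. Col8a1, a short-chain collagen of vessel walls, had 36, 48 and 112 reads against 0, 8 and 12. Col1a1 had 21, 20 and 32 reads against 0, 6 and 2. The ratios of CNT to DON with their counting intervals were 19.3 (7.23 to 72.4), 9.68 (6.10 to 16.2) and 9.01 (4.34 to 21.7). Means after DON were 1.59 (Col16a1), 5.82 (Col8a1) and 2.41 (Col1a1) normalized counts, against 24.1, 59.3 and 24.1 in CNT cells. Members this low after DON could enter the test only by falling. Col15a1 was just under the minimum in both culture tables and was not tested. It had 17, 15 and 28 reads in CNT cells and 0 in every DON and noGln library. Against a floor of 3 reads per library, CNT cells were at least 6.53-fold above DON and 6.09-fold above noGln cells. Col6a1 and Col6a2 fell 6.94-fold and 6.64-fold, and their ratio was 2.21 to 2.39 after DON against 2.30 to 2.66 in CNT cells.

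Col20a1 and Col7a1 did not follow the others. Col20a1 had 4, 5 and 2 reads in CNT cells and 55, 118 and 105 after DON, a ratio of 25.6 (14.1 to 51.9, adjusted p = 3.79e-06). Its mean was 4.19 normalized counts in CNT cells and 87.6 after DON. It thus reached the minimum only through DON-treated cells and could enter the test only by rising. A sense-overlapping transcript, BX649560.1, is annotated across the start of Col20a1, and reads of the pair could be shared. Col7a1 had 805, 910 and 785 normalized counts in CNT cells and 984, 839 and 1372 after DON, overlapped, and was not called (log2 0.33, SE 0.15, adjusted p = 0.0739); edgeR (adjusted p = 0.0469) and DESeq2 (0.0427) called it higher, as did limma without DON culture 2 (0.013), with quantile normalization (0.0295) and with a replicate block (0.0452).

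In Gln-free cells all 16 members were called, 13 lower and 3 higher, against 69.4% of 13390 genes (34.9% lower and 34.5% higher). The 3 higher members reached the minimum only through noGln cells. Col1a1 and Col16a1, among the lower members, reached it only through CNT cells, with means of 6.18 and 8.98 normalized counts in noGln cells. The filter thus set part of this count. The median log2 change was -1.19, and 0.01 for all genes. The CNT libraries were the same 3 as in the DON comparison, so the comparisons share their controls and are given side by side. Col6a1 fell most, from 2113, 2615 and 2043 normalized counts to 117, 115 and 214 (log2 -3.97, SE 0.21, adjusted p = 5.05e-09). Col6a2 went from 1102, 1350 and 920 to 176, 209 and 280 (log2 -2.35, SE 0.18). The ratio of Col6a1 to Col6a2 was 0.658 to 0.916 without Gln, under that of every other library.

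Col4a5 fell from 1095, 1017 and 1008 to 172, 201 and 198 normalized counts (log2 -2.44, SE 0.12), and Col8a1 from 42.7, 56.6 and 70.2 to 10.4, 16.5 and 6.0 (log2 -2.33, SE 0.42). Col18a1 changed by -1.57 (SE 0.10), Col4a2 by -1.09 (SE 0.09) and Col4a1 by -1.08 (SE 0.09) on the log2 scale. The ratio of Col4a1 to Col4a2 was 1.82 to 2.02 without Gln. Col7a1, which did not pass after DON, went from 759, 860 and 757 to 338, 309 and 391 normalized counts (log2 -1.20, SE 0.13, adjusted p = 2.63e-06). The fall of Col16a1 (log2 -1.57, SE 0.58, adjusted p = 0.0279) was lost with edgeR (adjusted p = 0.0502), DESeq2 (0.0657) and no filter on the mean (0.054), and in the fits without noGln culture 2 or 3 or CNT culture 2 or 3.

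A rise without Gln was called for 3 members. In CNT cells their means were 5.27 (Col11a2), 3.96 (Col20a1) and 6.39 (Col17a1) normalized counts. All 3 thus reached the minimum of 10 only through the noGln cells, and members this low in CNT cells could enter the test only by rising. Col11a2, a fibrillar chain of type XI known from cartilage, had 3, 4 and 12 reads in CNT cells, 132, 147 and 123 reads in noGln cells and 10, 12 and 24 after DON. The noGln cells stood at a ratio of 23.4 to CNT (14.8 to 39.4, adjusted p = 1.84e-07). After DON it was under the minimum and not tested, at 11.9, 11.1 and 20.2 normalized counts against 3.77 to 7.79 in CNT cells, without overlap. Col20a1 had 60, 81 and 90 reads in noGln cells, a ratio of 23.3 (12.8 to 47.3) to CNT. Col17a1, a transmembrane collagen of hemidesmosomes, had 16, 30 and 18 reads against 2, 10 and 8 in CNT cells (log2 1.79, SE 0.59, adjusted p = 0.0155); the call was lost without noGln culture 2 (0.0757) or CNT culture 1 (0.0525). Col9a3, which was under the minimum in both culture tables, had 0 reads in each CNT library, 8 to 19 reads after DON and 8 to 14 without Gln, and overlaps Tcfl5 on the opposite strand.

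**Figure D4:**
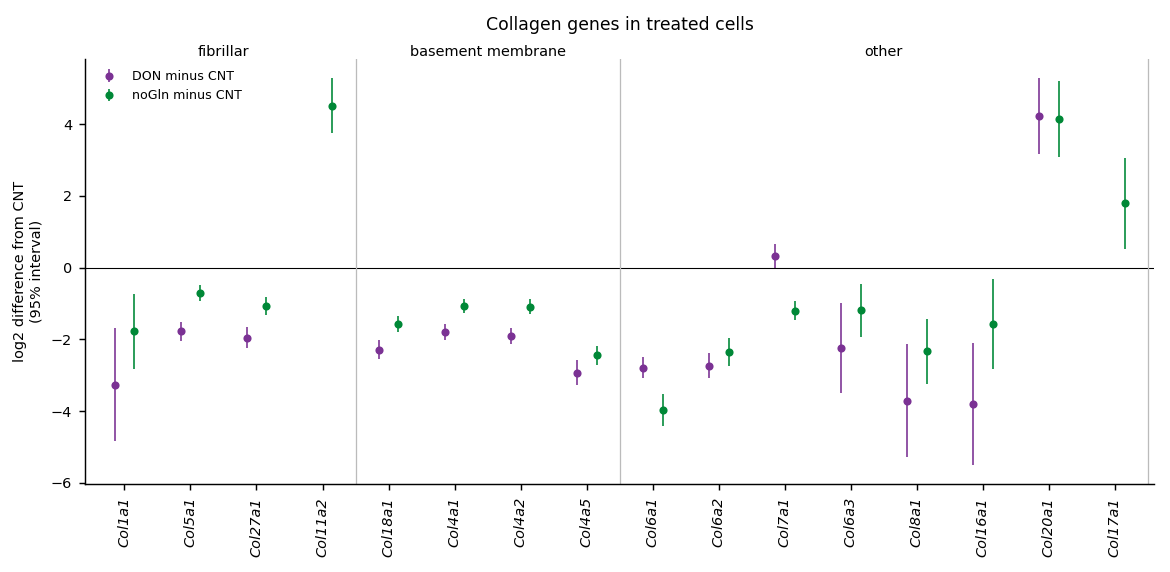
Log2 change with its 95% interval of each member measured in cultured cells, DON against CNT and noGln against CNT, which share the CNT libraries. Nearly all members lie below 0, from -3.80 to -1.77 after DON and from -3.97 to -0.71 without Gln, and Col20a1 lies near 4 in both.

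Tested directly, DON and noGln cells differed for 11 of 17 members, 9 lower after DON and 2 higher, against 63.2% of 13523 genes (32.2% lower and 31% higher). The basement membrane chains Col4a1 (-0.68, SE 0.09), Col4a2 (-0.79, SE 0.09), Col18a1 (-0.68, SE 0.11) and Col4a5 (-0.45, SE 0.16) were lower after DON on the log2 scale, as were Col5a1 (-1.03, SE 0.12), Col27a1 (-0.84, SE 0.13), Col16a1 (-2.18, SE 0.80), Col11a2 (-3.25, SE 0.39) and Col17a1 (-2.86, SE 0.69). Col6a1 (1.21, SE 0.20) and Col7a1 (1.55, SE 0.15) were higher after DON. Col11a2 and Col17a1 were under the minimum in the DON table and reached it here only with the noGln cells. The filter thus favored lower values after DON for both and set part of this count. The call of Col4a5 was lost without DON culture 1 or 2 or noGln culture 2 or 3, and that of Col16a1 without DON culture 2 or 3 or noGln culture 1 and with a pseudocount of 5. Calls were gained for Col1a1 with quantile normalization or without DON culture 2, for Col6a2 without noGln culture 1 and for Col8a1 without DON culture 3, each lower after DON. Col20a1 differed by 0.10, with a 95% interval of -0.79 to 0.98.

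The DRP-104 effect in tumors was set against the DON effect in cells in 1 model with an interaction term. The agents, doses and times differ, and tumors hold other cells than cultures. Col1a1, Col8a1 and Col16a1 reached the minimum in the DON table only through CNT cells, and Col20a1 only through DON-treated cells. Of 14 members, 12 had effects that differed, against 37.3% of 13047 genes (21.5% higher and 15.9% lower). For 11 of them the interaction was above 0, so the value in tumors lay above the value in cells; it was below 0 in tumors too for all but Col27a1 (0.33) and Col4a5 (0.06). The basement membrane chains gave interactions of 1.31 (Col4a1, SE 0.22), 1.38 (Col4a2, SE 0.27), 1.87 (Col18a1, SE 0.21) and 2.99 (Col4a5, SE 0.42). Col5a1, with 0.98 (SE 0.23), gave the smallest of the called differences above 0. Col20a1 gave -2.48 (SE 0.77), its log2 values being 1.75 in tumors and 4.22 in cells. Col7a1 (-0.90, 95% interval -2.23 to 0.42) and Col6a3 (1.42, -0.14 to 2.98) did not pass. The calls of Col1a1 and Col20a1 were the weakest: that of Col1a1 was lost in 7 of the 12 fits without 1 library and with a pseudocount of 5 (interaction 0.83), with quantile normalization (1.37, adjusted p = 0.0777) and with no filter on the mean (0.0527). That of Col20a1 was lost without DRP-104 tumor 2, VEH tumor 1 or DON culture 2 and with no filter on the mean (0.0606).

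**Figure D5:**
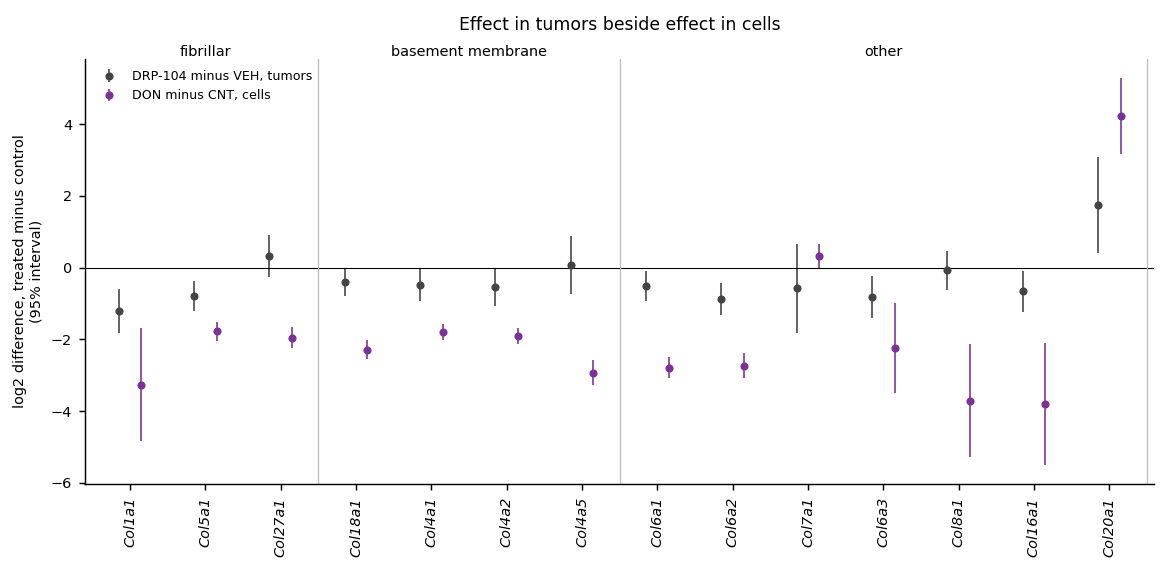
Log2 difference with its 95% interval for the 14 members tested in both tables, DRP-104 against VEH in tumors and DON against CNT in cells. The cell values of 12 members lie between -3.80 and -1.77, and Col20a1 is above 0 in both.

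Genes that act on collagens were counted in the same fits, from lists of known function. In tumors limma called 0 members of the 6 lists in either set. An unadjusted limma p under 0.05 was found for 5.01% of all genes in the tumor table. It was found for 4 of 6 procollagen-processing genes, 2 of 6 cross-linking genes and 4 of 12 proteases and Timp inhibitors. The other counts were 3 of 17 modifying genes, 2 of 16 basement membrane partners and 1 of 9 receptors. In the FPKM set the share of all genes was 7.61%. There it held for 4 of 16 partners, 2 of 9 receptors, 1 of 6 cross-linking genes and 1 of 12 proteases and inhibitors. It held for 0 of 12 modifying and 0 of 6 processing genes. DESeq2 called Adamts2, Loxl1, Mmp2 and Mrc2 lower in the tumor table. Counts in cells are read against the shares of all genes, 68.1% called after DON and 69.4% without Gln, with lower and higher calls close to even in both. In DON-treated cells, 4 of 4 cross-linking enzymes tested were lower, led by the transglutaminase Tgm2 (log2 -4.36, SE 0.30) and the lysyl oxidase-like Loxl2 (-3.94, SE 0.26). Of the proteins that modify the chains inside the cell, 13 of 16 were called, 8 lower and 5 higher, among them the prolyl hydroxylase chain P4ha3 (-3.84, SE 0.80) and Crtap (-1.64, SE 0.12), a partner of prolyl 3-hydroxylase. All 4 procollagen-processing genes tested were lower, as were all 8 members tested of a list of matrix-degrading proteases and their Timp inhibitors, the largest falls being Adamts14 (-1.88, SE 0.40) and Mmp10 (-3.04, SE 0.33). Of the basement membrane partners, 8 of 12 fell and 2 rose, with Nid2, a nidogen that links laminin to type IV collagen, at -5.03 (SE 0.44) and Agrn at -2.08 (SE 0.12). Of 6 receptors 4 were lower, Itga1 by most (-3.17, SE 0.19), and the discoidin receptor Ddr2 was higher (3.68, SE 0.70). Ddr2 was under the minimum in the noGln table, which holds the same CNT libraries, so the filter may have favored its rise.

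Without Gln, 3 of 4 cross-linking genes fell, Tgm2 by -2.82 (SE 0.15) and Loxl3 by -2.81 (SE 0.83) on the log2 scale, and 10 of 12 basement membrane partners fell, Nid2 by -3.30 (SE 0.24). Of the modifying genes 9 of 16 were lower and 3 higher, with P4ha3 at -3.82 (SE 0.78) and Colgalt1 at -1.52 (SE 0.09). Of 5 procollagen-processing genes 3 were lower, among them Bmp1 (-1.15, SE 0.10), and Tll1, a tolloid-like processing enzyme, was higher (2.69, SE 0.55). Tll1 was under the minimum in the DON table, which holds the same CNT libraries, so the filter may have favored its rise. Of the 7 proteases and Timp inhibitors tested 6 were lower, Mmp10 by most (-5.34, SE 0.39), and 1 was higher. Between VEH tumors and CNT cells, 5 of 6 cross-linking genes, 12 of 12 proteases and Timp inhibitors and 12 of 16 basement membrane partners were higher in tumors, against 33.1% of all genes. On the joint scale the lysyl oxidase Lox had 1291, 2632 and 1030 normalized counts in VEH tumors and Loxl1 had 1352, 1452 and 921, and both were at 0 in all 3 CNT libraries. Mmp2, a gelatinase, had 2176, 5140 and 1512 normalized counts against 0, 2.10 and 0 in CNT cells. Sparc, a collagen-binding matrix protein, had 18234, 25381 and 13004 normalized counts in VEH tumors against 4.25, 8.40 and 5.49 in CNT cells. Lox, Loxl1, Mmp2 and Sparc thus reached the minimum only through VEH tumors and could enter the test only by being higher there, so the filter set part of these counts.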

How the data were processed

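RNA-seq was measured in 6 orthotopic tumors and 9 cultures of HY19636 cells. The signal values of the deposited tables are normalized counts: the authors divided the read counts of each library by its DESeq2 size factor. The deposited FPKM table was made by the authors per fragment and gene length. The processing notes name HISAT2, DESeq2, CASAVA, STAR 2.5 and GRCm39, whereas the FPKM table's coordinates are those of GRCm38; counting tool and strand use are not given in the sources used here.

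Whole reads were recovered by dividing each value by what 1 read is worth. At a tolerance of 0.0051, at least 99.9873% of values came out whole. The main test was limma 3.58.1 (R 4.3.3, trend) on log2(value + 1), for genes with a mean of at least 10, with Benjamini-Hochberg adjustment over all genes tested and a call at adjusted p under 0.05. A fold is thus on the log2(value + 1) scale and understates changes of low genes. FPKM was tested as log2(FPKM + 1) at a mean of at least 0.5. Comparisons across tables used the recovered reads on a joint median-of-ratios scale. edgeR 4.0.16 and DESeq2 1.42.0 on recovered reads, a pseudocount of 5, other filters, quantile normalization, a replicate block and fits without each library were alternatives. RPKM used the gene lengths of the FPKM table. Ratios on few reads carry 95% exact binomial intervals, which like the floors cover counting error only.

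The control columns of the culture tables are headed HY19_VEH and were matched to the CNT cultures by the table they stand in; their reads were equal in both culture tables for 55291 genes. Members and lists were chosen with earlier results of these data known. Values in every library are given for the 4 members of each class with the highest VEH RPKM and, in each culture comparison, for up to 4 rises and 4 falls called without overlap; of the other lists, the 2 largest changes called are named. Genes singled out beyond this were chosen after their values were seen. Scripts were tested on simulated data.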

Additional observations from a re-analysis of the deposited data

Results flagged for a closer look

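Results are listed where the DRP-104 effect in tumors and the DON effect in cells differed by the interaction test of limma, as the difference of the log2 values, tumors minus cells. The interaction was 3.63 for Col8a1, 3.14 for Col16a1, 2.99 for Col4a5, 2.28 for Col27a1, 2.28 for Col6a1, 2.05 for Col1a1, 1.87 for Col18a1, 1.86 for Col6a2, 1.38 for Col4a2, 1.31 for Col4a1 and 0.98 for Col5a1. It was -2.48 for Col20a1. All 12 rest on 3 libraries a group. In the DON table, Col8a1, Col16a1 and Col1a1 reached the minimum only through CNT cells and Col20a1 only through DON-treated cells, so the filter favored the direction of these interactions.

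In 5 members every DRP-104 value lay below the VEH values in the tumor table and above them in the FPKM set. This difference was not tested, and the share of all genes with it was not counted. Col11a1 had log2 differences of -3.13 in the tumor table, where it reached the minimum only through VEH tumors, and 0.52 in the FPKM set. For Col1a1 they were -1.21 and 1.08, for Col23a1 -1.13 and 0.77, for Col5a2 -0.95 and 0.88, and for Col8a2 -0.97 and 0.75. DRP-104 column 1 of the FPKM set held the highest Col1a1 value, 1278 FPKM, against 395 and 334 FPKM in the other 2 columns.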

How the results depend on the processing

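Over 93 values of single genes and 1327 alternatives, 1253 kept their direction and their side of the threshold, 43 fell back over it, 16 passed it and 15 changed sign. The count of members called moved by over 1.5 times in 3 cases: 6 in tumors with DESeq2, and 8 after DON and 10 without Gln at a mean of at least 50, where fewer genes were tested; at that mean, 9 and 10 members counted as made by the cells. Fits without each library called 0 in both tumor sets, 12 to 15 after DON, 15 to 17 without Gln, 9 to 11 between DON and noGln, 24 to 28 between tumors and cells and 10 to 13 in the interaction. Same-numbered libraries correlated at -0.36 to 0.04 in their deviations. With 3 libraries a group, this showed no pairing by number but cannot exclude one. A replicate block gave 0 calls in the tumor table, 14 after DON, 16 without Gln and 11 for DON against noGln. It gave 27 for tumors against cells and 12 in the interaction.

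Signs changed in log2 values near 0 and in Col7a1 and Col20a1. Over the fits without each library or column, Col7a1 in the tumor table ran from -0.93 to 0.098, Col18a1 and Col6a2 in the FPKM set from -0.21 to 0.16 and from -0.039 to 0.36, Col20a1 between DON and noGln from -0.072 to 0.29, and Col18a1 and Col4a5 between tumors and cells from -0.023 to 0.15 and from -0.46 to 0.26. With quantile normalization, Col18a1 was 0.017 in the FPKM set, and Col20a1 was -0.55 and Col4a5 0.022 between tumors and cells; Col4a5 was 0.065 there with edgeR and 0.090 with DESeq2. The cause was not tested.

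With basement membrane taken as type IV only, its share and that of the others were 15.8 and 43.2% in DRP-104 tumors, 12.6 and 36.0% in VEH tumors, 54.0 and 41.3% in DON, 48.7 and 47.1% in CNT and 57.1 and 36.6% in noGln cells, and 9.78 and 24.2% (DRP-104) and 11.1 and 30.6% (VEH) in the FPKM set. Reads without length gave other collagens 19.1% in DRP-104 tumors; fibrillar and basement membrane chains 5.75 and 85.1% in DON cells; fibrillar, basement membrane and other chains 5.28, 88.5 and 6.23% in CNT cells and 7.62, 89.3 and 3.10% in noGln cells. Depth limits members with under 20 reads in a culture.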
